A study of Homo sapiens with 12 samples.

Results

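The histone gene clusters of human cells hold most of the genes that supply histone proteins for newly replicated DNA, and their mRNAs were followed here in pancreatic cancer cells before and after the enzyme GOT1 was silenced. Members were the protein-coding genes whose symbol in the authors' count table starts with HIST1, HIST2, HIST3 or HIST4, which gave 71 of 58721 genes. By family they comprise 6 genes for the linker histone H1 and 17, 18, 15 and 15 genes for the core histones H2A, H2B, H3 and H4, and by cluster 55 genes of HIST1, 12 of HIST2, 3 of HIST3 and 1 of HIST4. A further 19 genes with such symbols are not annotated as protein coding and were left out. RNA-seq was performed on 12 libraries of Pa-Tu-8902 and MIA PaCa-2, both established human pancreatic ductal adenocarcinoma lines, with 3 untreated and 3 doxycycline-treated libraries of each line. Every library came from cells that stably carry a lentiviral short hairpin RNA against GOT1 under a doxycycline (dox)-inducible promoter, and the sources used here do not say which hairpin. Treated cells received dox for 5 days, at a dose that the sample labels give as 1 µM/mL, while the study's methods give µg/mL as its unit. All libraries carry the hairpin and all treated libraries received dox, so a response to dox and a response to GOT1 loss cannot be told apart in these data.

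Histones package DNA into nucleosomes, in which DNA wraps around a core of H2A, H2B, H3 and H4, and H1 binds the linker between cores. The clustered genes are transcribed mainly in S phase, and their mRNAs are unusual among messages in that they normally end at a conserved stem-loop and carry no poly(A) tail. The stem-loop is bound by SLBP, and the U7 small nuclear ribonucleoprotein, which contains LSM10 and LSM11, directs the cleavage just after it. These libraries were made from poly(A)-selected RNA, so the counts of a clustered histone gene report its polyadenylated or carried-over transcripts and not its total mRNA.

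The stem-loops are shown because they mark the end that these messages normally have in place of a poly(A) tail. The 200 bases after the coding end in the GRCh38 genome were searched for 16 bases that start GG and end CC. These had to form a 6-base stem (G-T pairs allowed) with a 4-base loop that starts TT, so other forms would be missed. The element was found in 68 of the 71 members, 25 to 70 bases after the coding end (median 38.5). The same search found it in 23 of 19975 other protein-coding genes (0.115%). None was found in HIST1H2BI, HIST1H3E and HIST1H4L. The members used 7 distinct sequences, of which the 4 most frequent are printed 5′ to 3′ with the stem in capitals.
Form in 41 members of H1, H2A, H2B and H3: GGCTCTtttcAGAGCC
Form in 10 members of H1, H2A, H2B and H3: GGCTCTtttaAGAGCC
Form in 10 members of H4: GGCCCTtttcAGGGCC
Form in 4 members of H4: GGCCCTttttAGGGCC
The forms of the H4 genes were not found in the other families, whose stems differ from them. The remaining 3 forms each occurred once, in HIST1H2AG, HIST1H2AK and HIST2H2AC.

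H2A and H2B genes often start back to back on opposite strands and share the DNA between their start sites. In the GENCODE annotation of GRCh38, 11 such pairs had starts at most 300 bases apart. The stretches between the starts of 3 of them are printed because the genes on their sides moved apart, together, or on one side alone with dox in MIA PaCa-2, as described further on. They are given on the plus strand, so that the first gene named reads away to the left and the second to the right, and capitals mark CCAAT, the octamer ATTTGCAT and TATAAA on either strand.
HIST2H2BE and HIST2H2AC, chr1:149886683-149886917: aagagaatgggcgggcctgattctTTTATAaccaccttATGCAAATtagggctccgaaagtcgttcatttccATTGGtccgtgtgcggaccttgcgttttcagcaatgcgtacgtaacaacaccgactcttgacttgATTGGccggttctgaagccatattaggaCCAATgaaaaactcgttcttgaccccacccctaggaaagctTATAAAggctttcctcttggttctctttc
HIST1H2BJ and HIST1H2AG, chr6:27132796-27133042: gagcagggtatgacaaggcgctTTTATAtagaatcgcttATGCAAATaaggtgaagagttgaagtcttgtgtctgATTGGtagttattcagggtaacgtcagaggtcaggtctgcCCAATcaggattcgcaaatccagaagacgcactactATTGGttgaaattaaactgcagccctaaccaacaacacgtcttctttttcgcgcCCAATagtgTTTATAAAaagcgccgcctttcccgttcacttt
HIST1H2AJ and HIST1H2BM, chr6:27814778-27815021: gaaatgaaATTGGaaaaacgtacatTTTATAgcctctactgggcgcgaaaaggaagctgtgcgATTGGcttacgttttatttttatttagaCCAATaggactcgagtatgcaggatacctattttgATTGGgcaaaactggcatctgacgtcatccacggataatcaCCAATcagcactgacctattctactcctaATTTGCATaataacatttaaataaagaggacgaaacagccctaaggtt
Each stretch held 3 to 5 CCAAT motifs and 1 octamer. Among the 66 members with a RefSeq promoter entry on GRCh38 (250 bases before to 50 after the start), 84.9% held CCAAT, 39.4% the octamer and 66.7% TATAAA, where 34.6%, 1.77% and 11.5% of all 35116 promoters of that length did. The octamer was found in 68.8% of H2A and 77.8% of H2B promoters, in 7.69% of H3 promoters and in none of the 6 H1 and 13 H4 promoters. CCAAT was found in every H1, H2A, H2B and H3 promoter and in 23.1% of the H4 promoters. Such matches describe the letters in these windows and not the binding of a factor.

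The libraries held 26226537 to 43406137 counts. GOT1 itself had normalized counts of 4076, 3956 and 4519 in untreated Pa-Tu-8902 and 192, 165 and 146 with dox, and of 2075, 2341 and 2178 and 69.3, 74.6 and 95.4 in MIA PaCa-2. Every dox library was thus far below every untreated one (log2 fold changes of -4.64 and -4.76; edgeR quasi-likelihood test, Benjamini-Hochberg adjusted p = 1.51e-09 and 1.06e-09). Normalized counts are counts scaled to the mean effective library size of a line, with TMM factors. The epithelial genes EPCAM and CDH1 were abundant in Pa-Tu-8902 and at or near 0 in MIA PaCa-2, where the mesenchymal gene VIM was high. With dox, CDH1 was higher in Pa-Tu-8902 and KRT19 lower in MIA PaCa-2. These were the only calls with dox among 7 listed epithelial and mesenchymal genes, of which 7 and 5 were tested. At an unadjusted p under 0.05, 2 were higher and 4 lower in Pa-Tu-8902, and 1 was higher and 1 lower in MIA PaCa-2. Untreated Pa-Tu-8902 replicate 3 had a normalized VIM count of 426 against 162 and 185 in its group, and a COL1A2 count of 46.2 against 0 and 0. No source used here states that the replicates were separate cultures, so that the p values measure the spread between these libraries.

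The share of all counts that fell on the histone cluster genes differed between the lines, and with dox it was higher in one and lower in the other. In Pa-Tu-8902 it was 0.00491, 0.00459 and 0.00414% in the untreated libraries and 0.00736, 0.00831 and 0.00680% in the dox libraries, and the dox median was 1.60 times the untreated one. In MIA PaCa-2 it was 0.171, 0.207 and 0.172% untreated and 0.0840, 0.0796 and 0.0819% with dox, and the dox median was 0.476 times the untreated one. The groups of a line did not overlap, and the untreated MIA PaCa-2 median was 37.5 times the untreated Pa-Tu-8902 median. These are sums over chosen genes and were not tested. A Pa-Tu-8902 library held 1333 to 3605 counts of these genes and a MIA PaCa-2 library 20865 to 62958, so that the genes were measured with far fewer counts in Pa-Tu-8902. Untreated MIA PaCa-2 replicate 2 stood above the other untreated libraries of the line both in this share and in the share of a list of RNAs that carry no poly(A) tail (0.0205, 0.0304 and 0.0205%), and the ratio of the histone share was 0.478 without it. In bulk RNA, fewer cells that make these transcripts and less transcript per cell cannot be told apart.

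The CPM sums (counts scaled to the library total) of H1, H2A, H2B and H3 had a higher median with dox in Pa-Tu-8902 and a lower one in MIA PaCa-2, and H4 differed in the latter. H2B had the largest ratio of dox to untreated in Pa-Tu-8902, with 13.7, 12.5 and 11.4 CPM untreated and 28.6, 33.9 and 28.2 with dox (2.28 times). H4 had the smallest ratio in MIA PaCa-2, with 199, 234 and 203 untreated and 55.8, 53.0 and 57.1 with dox (0.275 times), while in Pa-Tu-8902 its values of 10.8, 9.58 and 7.27 and 9.67, 11.4 and 8.48 overlapped. The other ratios were 1.45, 1.55 and 1.22 for H1, H2A and H3 in Pa-Tu-8902, and 0.358, 0.589, 0.473 and 0.773 for H1, H2A, H2B and H3 in MIA PaCa-2. Per length, as summed TPM (transcripts scaled for length and library), H3 turned the other way in MIA PaCa-2 (1.16 times) and H4 did in Pa-Tu-8902 (0.876 times), while the other ratios kept their direction. The top 5 members of each line held 46.8% of the members' counts in Pa-Tu-8902, while those of MIA PaCa-2 held 70.6%.

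**Figure D1:**
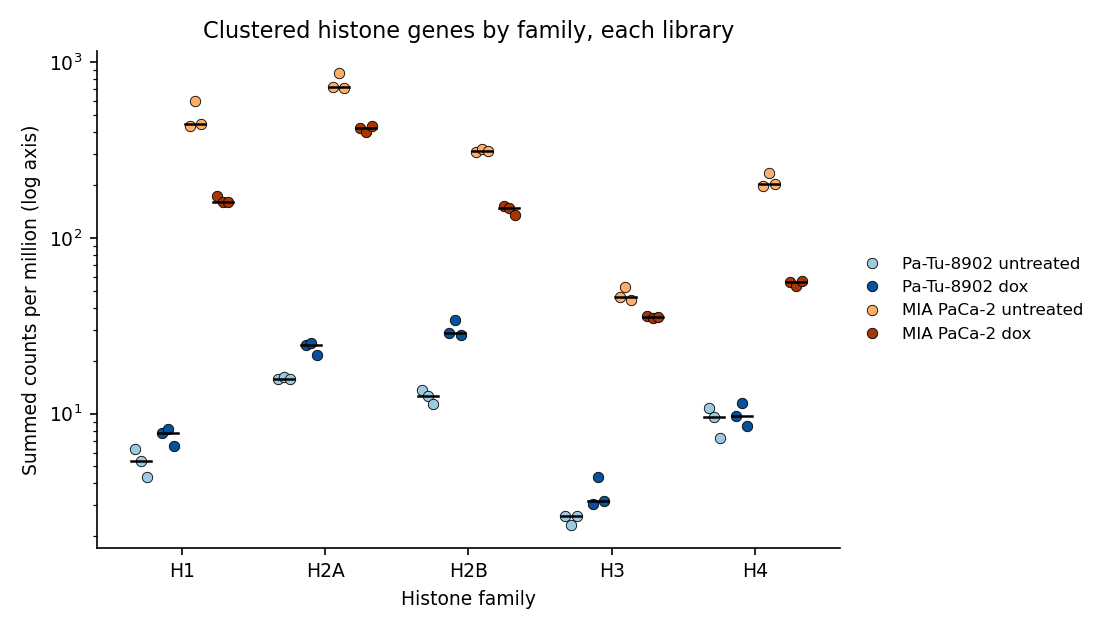
Summed CPM of the histone cluster genes by family on a log axis, with 1 point for each of the 12 libraries and a bar at each group's median. In MIA PaCa-2 every dox library lies below every untreated library in each family, and in Pa-Tu-8902 the H2B values rise from 11.4 to 13.7 untreated to 28.2 to 33.9 with dox while those of H4 overlap.

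In Pa-Tu-8902, 30 of the 71 members had at least 10 counts in at least 3 libraries and were tested. Of these, 10 were higher with dox and 0 were lower, where 9.22% of the 14949 genes tested were higher and 7.12% lower (16.3% in all). Calls needed an adjusted p under 0.01 in edgeR together with at least 1.5 times more or fewer counts. At an unadjusted p under 0.05, 12 members were higher and 0 lower, and DESeq2 called 9 and 0. The median log2 fold change of the members tested was 0.17, against 0.00 over all genes tested. In MIA PaCa-2, 52 members were tested, of which 3 were higher and 20 lower, where 4.36% of 14589 genes were higher and 7.64% lower (12% in all). The median was -0.41, against -0.01 over all genes. A gene that is high in 1 group alone can pass the count filter through that group, so the counts were also taken over members with at least 10 counts in every library of the line. There, 10 of 22 were higher in Pa-Tu-8902, and 3 of 45 were higher and 19 lower in MIA PaCa-2. No untreated value of a called member overlapped its dox values in either line. The thresholds of a call make such a gap likely with 3 libraries per group, so it adds no support to the calls. Its share over all called genes was not taken. Of the members, 10 were at 0 in every library and 15 in every Pa-Tu-8902 library.

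Among the H1 genes, which encode the linker histones, 1 of 3 tested was higher in Pa-Tu-8902 and 1 of 4 was lower in MIA PaCa-2. Both calls were of HIST1H1C, which lies at chr6:26055740-26056470 on the minus strand (GRCh38). HIST1H1C had normalized counts of 144, 120.4 and 123 in untreated Pa-Tu-8902 and 220.1, 223 and 189 with dox, a rise of 1.64 times (log2 0.71 ± 0.12 SE, edgeR adjusted p = 0.000701). In MIA PaCa-2 it had 12922, 18627 and 13175 untreated and 5046, 4678 and 4694 with dox, 3.10 times lower (log2 -1.63 ± 0.12, edgeR adjusted p = 2.04e-06). All dox libraries were above the untreated ones in the first line and below them in the second, and untreated MIA PaCa-2 replicate 2 was the highest. HIST1H1C was also the member with the most counts in untreated MIA PaCa-2. The linker histone genes HIST1H1B and HIST1H1E, with lower counts, had log2 fold changes of -0.73 and -0.42 in Pa-Tu-8902 and 0.46 and 0.38 in MIA PaCa-2, none of which passed the test. HIST1H1T, the testis H1 gene, and HIST1H1A were too low to be tested in either line.

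The H2A genes encode partners of H2B in the nucleosome core, and 3 of 8 tested were higher in Pa-Tu-8902, while 2 of 13 were higher and 4 lower in MIA PaCa-2. HIST1H2AC had 85.2, 79.3 and 90.2 normalized counts in untreated Pa-Tu-8902 and 227, 235 and 225 with dox (log2 1.43 ± 0.12, edgeR adjusted p = 3.12e-06). In MIA PaCa-2 its 7043, 7720 and 6561 untreated counts stood against 1839.5, 1752 and 1941 with dox, 3.85 times lower (log2 -1.95 ± 0.07, edgeR adjusted p = 2.06e-08). The groups were wide apart and replicates close together in each line, and every deposited count of this gene was a whole number. HIST1H2AC lies at chr6:26124145-26139116 on the plus strand (GRCh38). HIST1H2AG, which shares its protein with 4 other members, had 48.7, 51.6 and 46.2 and then 109, 107 and 111 in Pa-Tu-8902 (log2 1.15, edgeR adjusted p = 0.000107). Its values in MIA PaCa-2 were 392, 372 and 367 and then 216, 205 and 171 (log2 -0.94, edgeR adjusted p = 4.73e-05), again without overlap. The sum over the 5 genes of its protein was called higher in Pa-Tu-8902 (log2 0.78, edgeR adjusted p = 0.000855). In MIA PaCa-2 that sum was not called (log2 -0.28, edgeR adjusted p = 0.0213). HIST3H2A, the H2A gene of the HIST3 cluster, kept 209, 242 and 256 and 254, 259 and 213 in Pa-Tu-8902, which overlapped, and fell in MIA PaCa-2 from 1903, 2303 and 1898 to 1186, 1021 and 1318 (log2 -0.79, edgeR adjusted p = 0.000112). Per length, HIST3H2A was among the 5 most abundant members of Pa-Tu-8902, at 14.0 ± 1.25 TPM untreated (SD, n = 3).

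In MIA PaCa-2, 2 H2A genes and 1 H2B gene were higher with dox. HIST1H2AJ had 75.1, 117 and 56.2 normalized counts untreated and 283, 271 and 283 with dox in that line (3.38 times, edgeR adjusted p = 4.35e-05). HIST2H2AC had 102, 166 and 132 and then 218, 210 and 207 (1.59 times, edgeR adjusted p = 0.00611). In each, the 3 dox libraries were alike and lay above untreated replicate 2, the highest of its group. Neither was tested in Pa-Tu-8902, where no library exceeded 10 normalized counts. The third gene that was higher in MIA PaCa-2 was HIST1H2BL of the H2B family, with 77.9, 81.1 and 63.1 untreated and 183, 168 and 170 with dox (2.34 times, edgeR adjusted p = 5.70e-05). Without untreated replicate 2 of MIA PaCa-2, 7 members were higher in place of 3, the added ones being HIST1H4J, HIST2H3A, HIST1H4D and HIST1H3C. Left out in turn, the other libraries of the line gave 2 or 3.

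HIST2H2AA3 and HIST2H2AA4 encode the same H2A protein and lie in a repeated stretch of chromosome 1, so that reads are divided between them by estimation. HIST2H2AA3 had 0, 15.3 and 15.8 in untreated Pa-Tu-8902 and 73.7, 104 and 49.7 with dox, and was called higher (log2 2.82 ± 0.54, edgeR adjusted p = 0.00129), though not by DESeq2. HIST2H2AA4 had 120.5, 90.8 and 94.7 and 91.1, 58.4 and 83.6, which overlapped. The sum of both was 120.5, 106 and 110.4 untreated and 165, 163 and 133 with dox, a log2 fold change of 0.46 that was not called although the groups did not overlap (edgeR adjusted p = 0.0155). The large change of HIST2H2AA3 in Pa-Tu-8902 thus did not hold for the sum. In MIA PaCa-2 the sum was 11599, 15769 and 11740 untreated and 8352, 8052 and 8529 with dox, and it fell (log2 -0.65, edgeR adjusted p = 0.000505). HIST2H2AA4 alone was called there as well (log2 -0.65, edgeR adjusted p = 0.000434), but lost its call without untreated replicate 2 (log2 -0.52). Per length it was 1 of the 2 most abundant members of untreated MIA PaCa-2, at 1375 ± 116 TPM beside 1535 ± 164 for HIST1H1C (SD, n = 3).

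The H2B genes held most of the calls, with 6 of 8 tested higher in Pa-Tu-8902 and 1 of 14 higher and 11 lower in MIA PaCa-2. HIST1H2BK was the most abundant member per length in Pa-Tu-8902, at 33.3 ± 2.51 TPM untreated and 125 ± 13.0 with dox (SD, n = 3). Its normalized counts were 135, 119 and 113 and then 379, 511 and 438, a rise of 3.63 times (log2 1.86 ± 0.13, edgeR adjusted p = 1.36e-06). In MIA PaCa-2 they were 4215, 4508 and 4211 and then 2524, 2442 and 2113, 1.83 times lower (log2 -0.87 ± 0.07, edgeR adjusted p = 5.44e-06). Its log2 change was thus larger in the line where it was low than in the line where it was high. HIST2H2BE, the H2B gene of the HIST2 cluster, had 45.0, 40.1 and 36.1 and then 84.3, 102 and 85.7 in Pa-Tu-8902 (log2 1.17, edgeR adjusted p = 0.000347). In MIA PaCa-2 it had 1591, 1521 and 1640.3 and then 516, 472 and 457 (log2 -1.72, edgeR adjusted p = 4.68e-08). Replicates of HIST2H2BE were close together in each group, and the groups were clearly apart.

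HIST1H2BJ had 42.6, 67.8 and 55.2 in untreated Pa-Tu-8902 and 121, 134 and 92.0 with dox (log2 1.06 ± 0.21, edgeR adjusted p = 0.00156). In MIA PaCa-2 it had 643, 769.9 and 633 and then 143, 135 and 158, 4.67 times lower (log2 -2.22 ± 0.11, edgeR adjusted p = 1.11e-07). No dox library of HIST1H2BJ overlapped the untreated libraries of its line, and dox replicate 3 of Pa-Tu-8902 came nearest. HIST1H2BD rose from 82.7, 35.3 and 53.0 to 128, 140.5 and 125 in Pa-Tu-8902 (log2 1.23, edgeR adjusted p = 0.00171) and fell from 1479, 1728 and 1454 to 646, 669 and 623 in MIA PaCa-2 (log2 -1.27, edgeR adjusted p = 6.70e-07). HIST1H2BC rose in Pa-Tu-8902 from 28.0, 27.7 and 42.8 to 62.0, 97.8 and 78.3 (log2 1.28, edgeR adjusted p = 0.00158) and fell in MIA PaCa-2 from 370.1, 447 and 341 to 161, 111 and 144 (log2 -1.47, edgeR adjusted p = 1.64e-05). Untreated Pa-Tu-8902 libraries of HIST1H2BD were spread wide, with replicate 1 the highest, yet did not reach the dox libraries. HIST1H2BN, with the fewest counts of these, rose in Pa-Tu-8902 from 28.0, 26.7 and 23.7 to 70.8, 63.9 and 57.1 (log2 1.29, edgeR adjusted p = 0.000451) and fell in MIA PaCa-2 from 159, 147 and 149.8 to 66.0, 104 and 92.8 (log2 -0.79, edgeR adjusted p = 0.00321). Its call in MIA PaCa-2 was lost when untreated replicate 1, dox replicate 1 or dox replicate 3 was left out, at log2 values of -0.76, -0.63 and -0.84. With RSEM's effective lengths as offsets, HIST1H2BD and HIST1H2BJ lost their calls in Pa-Tu-8902 (log2 0.85 and 1.02) and HIST1H2BN its call in MIA PaCa-2 (log2 -0.52).

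A further 5 H2B genes were called lower in MIA PaCa-2 and were not tested or not called in Pa-Tu-8902. The difference between the lines was called for HIST1H2BO and HIST3H2BB and not for HIST1H2BE, HIST1H2BF and HIST2H2BF (edgeR adjusted p = 0.121, 0.530 and 0.0406). HIST1H2BO had 147, 186 and 171 untreated and 39.6, 28.7 and 28.6 with dox there, 5.20 times lower (log2 -2.38 ± 0.19, edgeR adjusted p = 2.60e-06), and was too low to be tested in Pa-Tu-8902. HIST2H2BF had 241, 255 and 262 and then 95.7, 120.5 and 83.3 (log2 -1.35, edgeR adjusted p = 2.47e-05), while in Pa-Tu-8902 its log2 fold change of -0.56 pointed the same way and did not pass the test (edgeR adjusted p = 0.0992). HIST1H2BE, HIST1H2BF and HIST3H2BB were called lower at log2 values of -1.15, -1.14 and -0.79 and were not tested in Pa-Tu-8902. HIST1H2BG did not pass in either line (log2 0.15 and -0.70). HIST1H2BC, HIST1H2BE, HIST1H2BF, HIST1H2BG and HIST1H2BI encode the same protein, and their sum rose in Pa-Tu-8902 (log2 0.65, edgeR adjusted p = 0.00392) and fell in MIA PaCa-2 (log2 -1.30, edgeR adjusted p = 2.81e-06). HIST1H2BA, the testis H2B gene, was at 0 in every library.

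The H3 genes, whose product carries many of the known histone tail marks, had few counts and few calls. None of 3 tested was called in Pa-Tu-8902 and 1 of 11 was lower in MIA PaCa-2, while DESeq2 called 0 in each line, and 1 and 4 had an unadjusted p under 0.05. HIST1H3H, the H3 gene with the most counts, had 18.3, 26.7 and 39.4 and 48.5, 60.0 and 55.0 in Pa-Tu-8902 (log2 0.95, edgeR adjusted p = 0.0141). In MIA PaCa-2 it had 681, 784 and 651 and 554, 553 and 571 (log2 -0.33, edgeR adjusted p = 0.00882), a difference smaller than the fold limit. Its groups did not overlap in either line, although neither difference was called. HIST2H3A and HIST2H3C are near-identical copies. HIST2H3A had 0, 262 and 0 in untreated MIA PaCa-2 and 133, 59.7 and 72.0 with dox, and HIST2H3C had 417, 262 and 405 and 0, 59.7 and 72.0. In untreated replicates 1 and 3 all reads were given to HIST2H3C and in dox replicate 1 all to HIST2H3A, and in the other libraries each got the same number. The call of HIST2H3C (log2 -3.00 ± 0.50, edgeR adjusted p = 0.000631) was not made by DESeq2.

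Summed, HIST2H3A and HIST2H3C had 417, 524 and 405 untreated and 133, 119 and 144 with dox in MIA PaCa-2, which did not overlap. With HIST2H3D, which encodes the same protein and had 23.2, 26.7 and 20.7 and 29.7, 18.4 and 16.5, the sum fell in MIA PaCa-2 (log2 -1.61, edgeR adjusted p = 2.30e-06). In Pa-Tu-8902 the same sum had a log2 fold change of 0.31 and was not called (edgeR adjusted p = 0.439). The 10 HIST1 genes that share their H3 protein, summed, were not called in either line (log2 0.55 and -0.10, edgeR adjusted p = 0.0888 and 0.364). The H3 genes of HIST2 and of HIST1 therefore differed in MIA PaCa-2 in whether their sum passed the test, a difference that was not itself tested. HIST1H3C was at 0 in all Pa-Tu-8902 libraries and had 134, 198 and 132 and 227, 236 and 219 in MIA PaCa-2 (edgeR adjusted p = 0.0139, not called).

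Among the H4 genes, 0 of 8 tested was called in Pa-Tu-8902, where 1 had an unadjusted p under 0.05 and DESeq2 called 0, and 3 of 10 were lower in MIA PaCa-2. HIST2H4A (chr1:149832657-149839767, plus strand), the H4 gene with the most counts, had 112, 100.3 and 71.0 and 120.2, 149 and 115 in Pa-Tu-8902 (log2 0.45, edgeR adjusted p = 0.0643). In MIA PaCa-2 it had 3117, 3629.6 and 3055 and 592, 535 and 513, 5.99 times lower (log2 -2.58 ± 0.09, edgeR adjusted p = 1.11e-08). HIST1H4H had 1368, 1389 and 1395 and 293, 273 and 280.2 there, 4.91 times lower (log2 -2.29 ± 0.07, edgeR adjusted p = 5.71e-09). Replicates of HIST1H4H were nearly equal within each group of MIA PaCa-2. In Pa-Tu-8902 HIST1H4H had 37.7, 40.1 and 28.2 and 23.3, 27.6 and 19.04, which did not pass the test (log2 -0.59, edgeR adjusted p = 0.0931). HIST2H4B, the copy of HIST2H4A, was lower as well in MIA PaCa-2 (log2 -2.38, edgeR adjusted p = 2.22e-05). HIST1H4E, HIST1H4C and HIST1H4J, which were also expressed in both lines, were not called in MIA PaCa-2, at log2 values of -0.16, 0.26 and 0.45. All 14 genes that encode the common H4 protein, summed, gave a log2 fold change of 0.05 in Pa-Tu-8902 (edgeR adjusted p = 0.821) and -1.95 in MIA PaCa-2 (edgeR adjusted p = 4.52e-08). HIST4H4, the lone member of its cluster, had 105, 115 and 115 and 93.5, 72.3 and 73.7 in MIA PaCa-2 and was not called (edgeR adjusted p = 0.0299).

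Of the 30 members tested in both lines, 9 were higher with dox in Pa-Tu-8902 and lower in MIA PaCa-2, and 0 moved in the reverse or in the same direction past the thresholds in both. Over all genes tested in each line, 9.22% were higher in Pa-Tu-8902 and 7.64% lower in MIA PaCa-2. The share of all genes with both calls was not taken, so the count of 9 has no direct background. The 9 were HIST1H1C, HIST1H2AC, HIST1H2AG, HIST1H2BC, HIST1H2BD, HIST1H2BJ, HIST1H2BK, HIST1H2BN and HIST2H2BE. Without regard to the thresholds, 16 of the 30 had a positive log2 fold change in Pa-Tu-8902 and a negative one in MIA PaCa-2, 4 the reverse, 7 were negative in both and 3 positive in both. This split by sign was not taken over all genes either. DESeq2 called each of the 9 in both lines too. The sum over the protein of HIST1H2AG was not called in MIA PaCa-2. HIST1H1C and HIST1H2AC had whole counts in every library, and the other 7 had at least 1 count that was not whole, which RSEM gives where it divides a read among genes. Over all libraries and genes, 5.34% of the deposited counts were not whole, and over the members 18.8%. All 9 had a stem-loop after the coding end and CCAAT in the promoter window, 7 held TATAAA and 6 the octamer. Of the 20 members lower in MIA PaCa-2, which include these 9, 17 held CCAAT, 11 TATAAA and 10 the octamer, and of the 3 higher there 3, 3 and 2 did. Of the 29 members tested and not called in MIA PaCa-2, 25 had a promoter entry, of which 20 held CCAAT, 19 TATAAA and 7 the octamer.

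**Figure D2:**
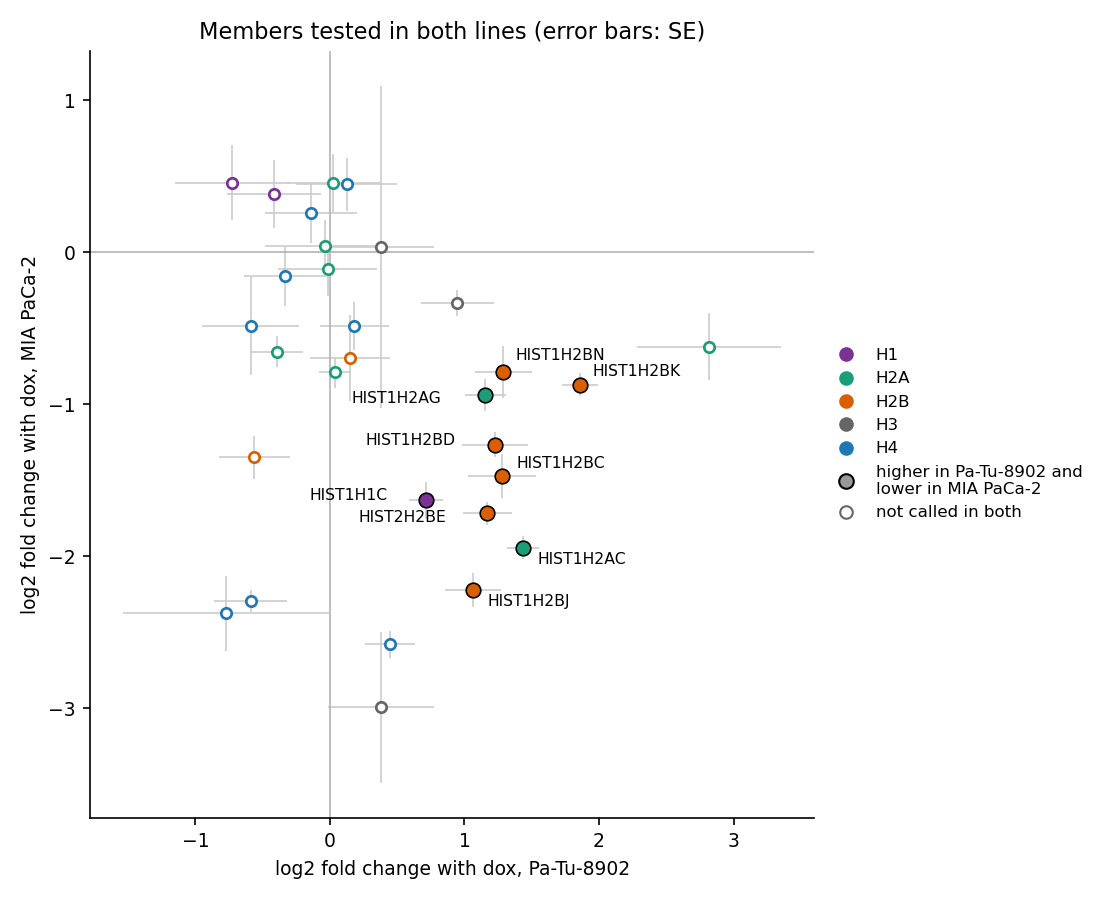
Log2 fold change with dox in MIA PaCa-2 against that in Pa-Tu-8902 for the 30 members tested in both lines, colored by family, with the standard error of each as a bar. The 9 filled points, called in both lines, lie at the lower right, from 0.71 to 1.86 in Pa-Tu-8902 and from -0.79 to -2.22 in MIA PaCa-2, and 6 of them are H2B genes.

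**Figure D3:**
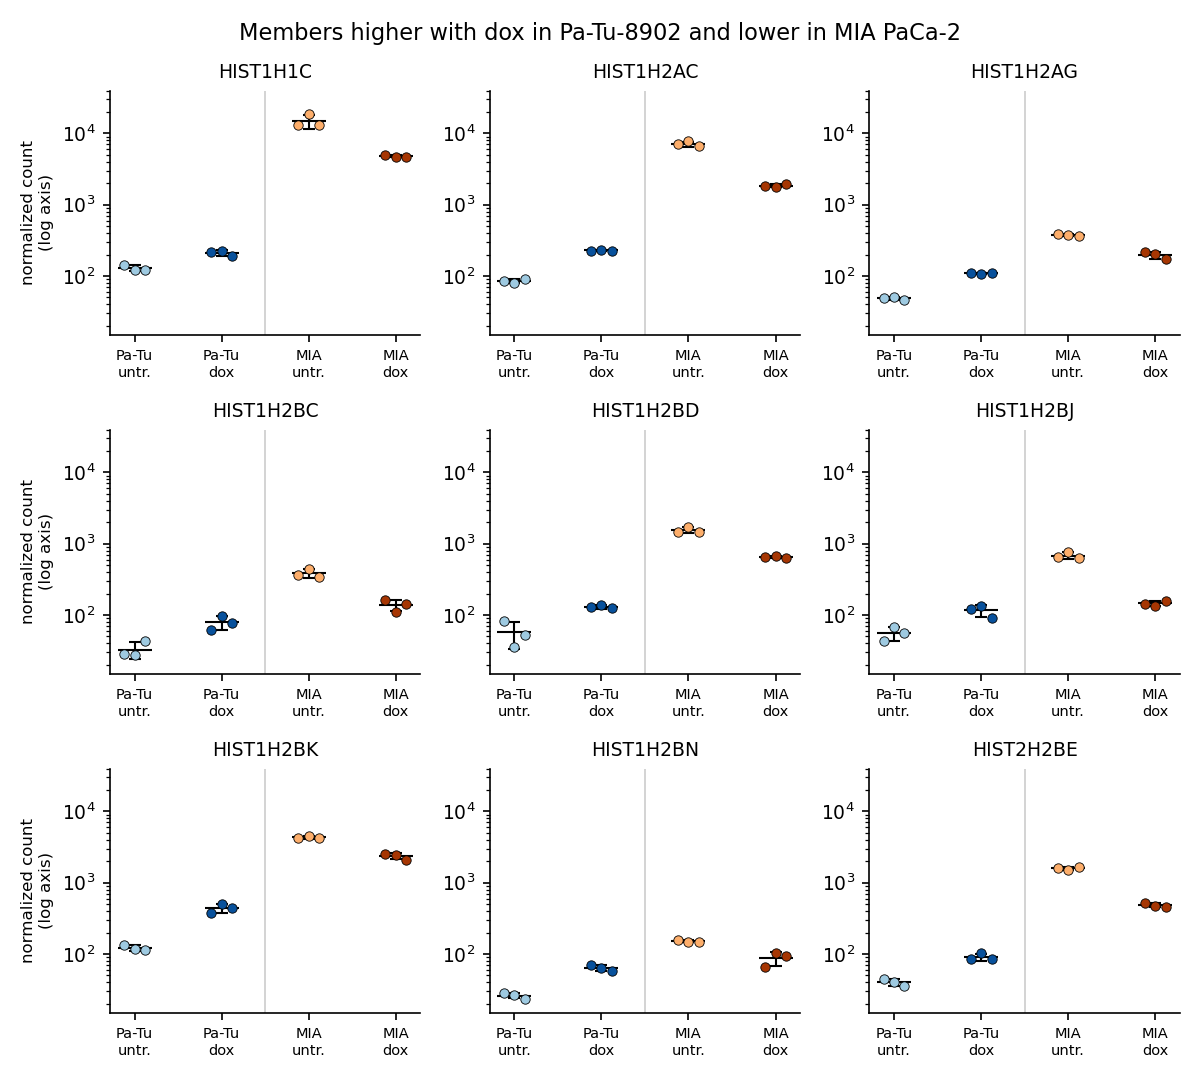
Normalized counts of the 9 members called in both lines on a shared log axis, with 1 point for each library and the mean and SD of each group (n = 3). In each panel the Pa-Tu-8902 dox libraries lie above the untreated ones and the MIA PaCa-2 dox libraries below theirs, and the MIA PaCa-2 libraries of HIST1H1C run from 4678 to 18627.

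The difference between the responses was tested as an interaction over all 12 libraries. Of 52 members tested, 17 had a larger log2 fold change in Pa-Tu-8902 than in MIA PaCa-2 and 0 a smaller one, where 6.56% of 16544 genes had a larger and 3.86% a smaller one (10.4% in all). At an unadjusted p under 0.05 there were 21 and 3, and DESeq2 called 16 and 2. Over members with at least 10 counts in every library, the counts were 13 and 0 of 22. The 17 comprised 8 H2B, 4 H2A, 2 H3, 2 H4 genes and HIST1H1C. HIST1H2AC differed by 3.38 ± 0.12 on the log2 scale (edgeR adjusted p = 3.27e-11) and HIST1H2BJ by 3.28 ± 0.23 (edgeR adjusted p = 1.54e-08). HIST2H4A, not called in Pa-Tu-8902, differed by 3.04 ± 0.19 (edgeR adjusted p = 3.61e-09), and HIST1H3H, called in neither line, by 1.28 ± 0.24 (edgeR adjusted p = 0.000607). HIST3H2A had the smallest called difference, at 0.83 ± 0.16 (edgeR adjusted p = 0.000903). HIST2H2AA3 (3.45) and HIST2H3C (3.40) had the largest, and both are copies whose reads were divided, while the sums over their protein differed by 1.11 and 1.95 (edgeR adjusted p = 0.000202 and 0.000204). The call of HIST2H3C was lost, at log2 values from 3.07 to 3.49, when Pa-Tu-8902 untreated replicate 2 or 3, Pa-Tu-8902 dox replicate 2 or 3, or MIA PaCa-2 untreated replicate 1 or 3 was left out. Members with a smaller response in Pa-Tu-8902 numbered 1 without Pa-Tu-8902 dox replicate 2 or 3 and 2 without MIA PaCa-2 untreated replicate 2. HIST1H2BO lost its call without dox replicate 2 of Pa-Tu-8902 (log2 1.88).

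Genes that start back to back did not always move together in MIA PaCa-2. HIST1H2BJ and HIST1H2AG, whose starts lie 247 bases apart, were both lower there (log2 -2.22 and -0.94) and both higher in Pa-Tu-8902 (1.06 and 1.15). HIST3H2A and HIST3H2BB were both called lower, each at a log2 of -0.79. HIST2H2BE and HIST2H2AC, with 235 bases between them, were called in opposite directions in MIA PaCa-2 (-1.72 and 0.67). In other pairs 1 side alone was called. HIST1H2AJ was higher while HIST1H2BM had 16.7, 21.6 and 12.8 and 23.1, 12.6 and 14.7 (log2 -0.02), and HIST1H2BL was higher while HIST1H2AI had a log2 fold change of 0.04. HIST1H2BK and HIST1H2BO were lower beside HIST1H2AH (0.54) and HIST1H2AM (0.46), which were not called. HIST1H2BG and HIST1H2AE were both not called. The printed stretches of HIST1H2BJ and HIST1H2AG and of HIST2H2BE and HIST2H2AC each hold the octamer once, nearer the H2B start, and CCAAT 4 and 3 times.

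**Figure D4:**
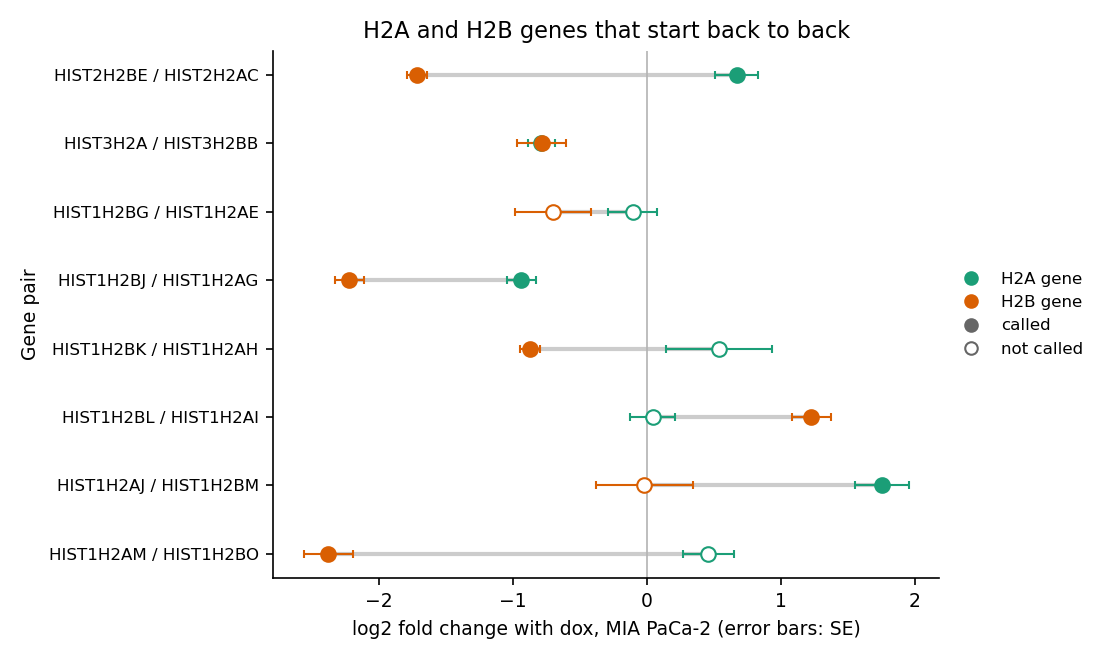
Log2 fold change with dox in MIA PaCa-2, with its standard error, of the 8 H2A and H2B pairs in which both genes were tested, with a gray line joining the genes of a pair. HIST2H2BE and HIST2H2AC lie on opposite sides of 0 at -1.72 and 0.67, both filled as called, while HIST1H2BJ and HIST1H2AG both lie below 0.

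The annotated transcripts to which the counts were assigned varied in length among the members. RSEM assigned member counts to 100 annotated transcripts of 297 to 4137 bases, and 58 members had 1 transcript. In MIA PaCa-2, 17 of the tested members had most of their counts in a transcript over 1000 bases long, and of these 0 were higher, 11 lower and 6 not called, with a median log2 fold change of -0.94. Of the 35 members with shorter ones, 3 were higher, 9 lower and 23 not called, with a median of 0.04. In Pa-Tu-8902, 4 of 12 and 6 of 18 were higher. The split at 1000 bases was not tested, and these medians describe the members only. Long annotated transcripts were those of HIST2H2BE (2194 bases) and HIST1H2AG (2250), while HIST1H1C (642), HIST1H2BK (381) and HIST1H2BO (381) were lower with short ones. HIST1H2AJ (387), HIST2H2AC (390) and HIST1H2BL (488), the members that were higher, had short ones.

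**Figure D5:**
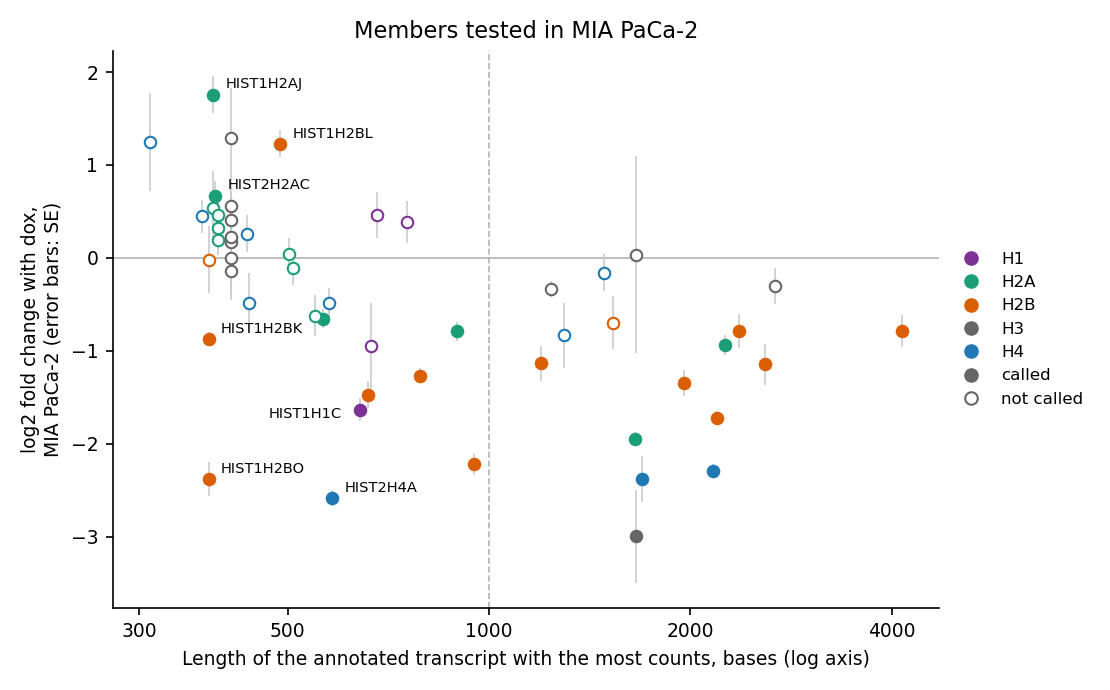
Log2 fold change with dox in MIA PaCa-2, with its standard error, of the 52 members tested, against the length of the annotated transcript with the most counts on a log axis, colored by family and filled where called, with a dashed line at 1000 bases. Right of the line 16 of 17 points lie below 0, and the 3 members called higher lie at 387 to 488 bases.

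Some annotated transcripts have their end past the stem-loop in the genome, as a polyadenylated histone message would. Positions were available for 28 of the 100 transcripts, those unchanged in a later annotation, and 26 of these end past the stem-loop. Transcripts without a position were counted as not past it, so the shares leave out any of these that do end past it. RSEM divides reads among the transcripts of a gene by estimation, so the shares are not strict limits in either direction. HIST1H2BD had 80.2% to 85.2% of its counts in such a transcript in untreated MIA PaCa-2 and 56.5% to 59.1% in dox libraries. In Pa-Tu-8902 the share was 42.8% to 72.1% untreated and 70.0% to 93.3% with dox, so that the share was higher with dox in the line where the gene rose, with overlap, and lower in the line where it fell, without overlap. HIST1H4H had 63.2% to 66.1% in untreated MIA PaCa-2 and 44.01% to 55.1% with dox, again without overlap. Its transcript HIST1H4H-204 had no position and was counted as not past. It had the same length (1034 bases) and the same counts in every library as HIST1H4H-202, which was counted as past. The values of HIST1H4H therefore depend on which transcripts had a position. HIST1H2BJ kept a high share throughout, at 89.0% to 92.4% and 83.7% to 89.5% in MIA PaCa-2, although its total fell. HIST1H2BN had 78.3% to 87.1% and 77.6% to 82.0%, and HIST1H2BC had 89.1% to 95.8% and 69.4% to 93.9%, which overlapped. HIST1H2AC had 29.9% to 51.0% and 26.7% to 74.4% in MIA PaCa-2, with overlap, although it fell. In Pa-Tu-8902 it had 0% to 17.7% untreated and 18.6% to 25.0% with dox. Its transcript with the most counts, HIST1H2AC-202 (1654 bases), had no position and was counted as not past. The values of HIST1H2AC therefore also depend on which transcripts had a position. HIST2H2BF had 25.8% to 27.45% and 11.1% to 20.3% in MIA PaCa-2, without overlap. The same limit holds for HIST2H2BF, whose transcript with the most counts, HIST2H2BF-201 (1954 bases), had no position and was counted as not past. Its fall in share therefore does not show a loss of transcripts that end past the stem-loop. The shares of HIST2H4A, HIST2H4B, HIST1H2BE and HIST4H4 overlapped in that line. On the genome, the main such transcript ends 12747 bases beyond the stem-loop in HIST1H2BD, 7522 in HIST1H4H and 6424 in HIST1H2BJ. The transcripts themselves are only 789, 2163 and 950 bases long, so most of these distances are not part of the RNA. Whether these transcripts contain the stem-loop or overlap neighboring genes was not examined. The one of HIST1H4H is annotated as subject to nonsense-mediated decay. The libraries were strand specific, but the study's methods state default settings for RSEM and STAR, and RSEM by default does not use strand, in which case the reads of overlapping genes cannot be told apart.

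By position, the HIST1 members fall into 3 stretches of chromosome 6. In chr6:25723397-26285638, which holds 34 members from HIST1H2AA to HIST1H4H, 4 were higher in Pa-Tu-8902 and 7 lower in MIA PaCa-2, and 0 were higher in the latter. Of these 34, 23 were not tested in Pa-Tu-8902 and 13 not in MIA PaCa-2. In chr6:27125897-27147562, with 5 members, 3 were higher in Pa-Tu-8902 and the 3 lower in MIA PaCa-2 were HIST1H2BJ, HIST1H2AG and HIST1H2BK. All 5 were tested in MIA PaCa-2, and 2 were not tested in Pa-Tu-8902. In chr6:27807479-27893891, with 16 members, 1 was higher in Pa-Tu-8902, and 2 were higher and 2 lower in MIA PaCa-2. Of these 16, 10 were not tested in Pa-Tu-8902 and 3 not in MIA PaCa-2. Of the 11 HIST2 members in chr1:149782689-149887965, 2 were higher in Pa-Tu-8902, and 1 was higher and 6 lower in MIA PaCa-2. There, 3 were not tested in Pa-Tu-8902 and 1 not in MIA PaCa-2. Over all genes tested, 9.22% were higher in Pa-Tu-8902, and 4.36% were higher and 7.64% lower in MIA PaCa-2. Differences between the stretches were not tested. HIST3H2A and HIST3H2BB, in chr1:228424845-228463104, were lower in MIA PaCa-2, and the third gene there, HIST3H3, was at 0. The ratio of the dox to the untreated median share of counts was 1.83 for HIST1 and 1.38 for HIST2 in Pa-Tu-8902 and 0.420 and 0.545 in MIA PaCa-2.

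Without dox, most members were lower in Pa-Tu-8902 than in MIA PaCa-2. Of 52 members tested, 44 were called lower in the former and 0 higher, where 28.2% of 16544 genes were lower and 29.4% higher (57.5% in all). At an unadjusted p under 0.05 there were 48 and 0, DESeq2 called 44 and 0, and among members with at least 10 counts in every library 20 of 22 were lower. The median log2 difference over the members was -3.67, against 0.00 over all genes tested. HIST1H1C was 126 times lower in Pa-Tu-8902 (log2 -6.98 ± 0.15, edgeR adjusted p = 1.57e-17), and HIST1H2AC 91.1 times (log2 -6.51 ± 0.09, edgeR adjusted p = 1.03e-19). HIST1H3C, at 0 in every Pa-Tu-8902 library, had a mean of 5.08 CPM in untreated MIA PaCa-2, which is at least 54.2 times higher when 3 counts per library are taken as the limit that a count of 0 allows. The same bound for HIST1H1D was at least 5.79 times. Members at similar levels were HIST1H1E (log2 0.12), the only one tested with a positive value, and HIST1H2BG (-0.51), neither of them called. HIST4H4 and HIST1H1B differed less than most (-1.15 and -1.34). Per length, HIST1H2BK and HIST1H1C were among the 5 most abundant members in both lines, as was HIST2H4A, at 9.57 ± 2.63 TPM in untreated Pa-Tu-8902 and 300 ± 9.68 in untreated MIA PaCa-2 (SD, n = 3).

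Histone genes outside the clusters, most of whose mRNAs carry a poly(A) tail, were read from a list of 12 replication-independent variants. In Pa-Tu-8902, 1 of 10 tested was lower and 0 were higher, and in MIA PaCa-2 2 of 11 were lower and 0 higher, while 2 higher and 5 lower and 1 higher and 3 lower had an unadjusted p under 0.05 and DESeq2 called 0 higher in each. H1F0, a linker histone of cells that divide little, fell in both lines, in Pa-Tu-8902 from 6558, 6819 and 6646 to 3932, 3908 and 3896 (log2 -0.77, edgeR adjusted p = 2.61e-07) and in MIA PaCa-2 from 2950.4, 2959 and 2973 to 2105, 1812 and 1874 (log2 -0.62, edgeR adjusted p = 3.39e-05). H2AFV, an H2A.Z variant, fell in MIA PaCa-2 (log2 -0.91, edgeR adjusted p = 1.21e-06), and its log2 fold change of -0.52 in Pa-Tu-8902 was under the fold limit. H2AFJ alone differed between the lines (log2 0.68, edgeR adjusted p = 0.00148), where its log2 fold change was 0.51 in Pa-Tu-8902 but -0.17 in MIA PaCa-2. H2AFZ and CENPA, the centromeric H3, were not called in either. No variant was called in opposite directions in the lines.

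Of 32 genes for histone mRNA transcription and 3′ end processing, 1 was lower and 0 higher in Pa-Tu-8902, and 1 was higher and 0 lower in MIA PaCa-2, and DESeq2 gave the same counts. At an unadjusted p under 0.05, 9 were higher and 10 lower in Pa-Tu-8902, and 10 were higher and 7 lower in MIA PaCa-2. LSM11, a subunit of the U7 ribonucleoprotein, rose in MIA PaCa-2 from 416, 418 and 404 to 747, 754 and 701 (log2 0.83, edgeR adjusted p = 7.91e-06). In Pa-Tu-8902 it had 561, 570.3 and 477 and 363, 354 and 416 (log2 -0.51, under the fold limit), and the difference between the lines was called (log2 -1.34, edgeR adjusted p = 5.07e-07). The sign of LSM11 was thus the opposite of that of the 9 members in each line, below the fold limit in Pa-Tu-8902. CSTF2, a subunit of the poly(A) cleavage machinery, fell in Pa-Tu-8902 (log2 -0.60, edgeR adjusted p = 6.88e-06). SLBP, NPAT, which drives transcription of clustered histone genes, and ZNF473 were not called (SLBP log2 -0.21 and -0.15). Of 22 histone chaperones, UBN2 alone was called in each line and was higher (log2 0.73 and 0.76, edgeR adjusted p = 0.000273 and 5.50e-05), while at an unadjusted p under 0.05 there were 2 higher and 9 lower in Pa-Tu-8902 and 6 higher and 9 lower in MIA PaCa-2, and TONSL alone differed between the lines (log2 -0.67).

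Few cell cycle genes passed the thresholds, and those called in both lines were lower in both. Of 38 genes for DNA replication and S phase, 1 was higher and 2 lower in Pa-Tu-8902 and 4 were lower in MIA PaCa-2, and 26 and 19 had a negative change at an unadjusted p under 0.05, against 3 and 8 with a positive one. TYMS, the thymidylate synthase, and ORC1, of the origin recognition complex, fell in both (TYMS log2 -0.70 and -0.60, edgeR adjusted p = 1.69e-06 and 5.20e-05, and ORC1 log2 -0.67 and -0.66, edgeR adjusted p = 4.66e-06 and 6.45e-05). E2F2, an S phase transcription factor, rose in Pa-Tu-8902 (log2 0.61, edgeR adjusted p = 0.000346), and POLD1, a DNA polymerase subunit, fell in MIA PaCa-2 (log2 -0.76, edgeR adjusted p = 3.77e-06), as did RFC4, of the clamp loader (log2 -0.73). The difference between the lines was called for 0 of the 38 by edgeR and by DESeq2, with 5 log2 fold changes larger and 12 smaller in Pa-Tu-8902 at an unadjusted p under 0.05. Of 30 genes for mitosis, 5 were higher and 11 lower in Pa-Tu-8902 at an unadjusted p under 0.05, and 12 were higher and 5 lower in MIA PaCa-2. At that level the log2 fold change was larger in Pa-Tu-8902 than in MIA PaCa-2 for 1 of them and smaller for 12. Among them NUF2, a kinetochore protein, was the only one called in each line and fell (log2 -1.15 and -1.04, edgeR adjusted p = 2.61e-07 and 1.85e-06), and UBE2C alone differed between the lines (log2 -0.59), though not by DESeq2. The part of the cell cycle in the histone counts was not tested.

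RNAs that carry no poly(A) tail are not meant to be captured in such libraries. A list of 24 such RNAs held 0.0241, 0.0209 and 0.0134% of counts in untreated and 0.0207, 0.0277 and 0.0147% in dox libraries of Pa-Tu-8902, which overlapped. In MIA PaCa-2 the list held 0.0205, 0.0304 and 0.0205% and 0.0292, 0.0325 and 0.0320%, a median ratio of 1.56, with untreated replicate 2 between the dox libraries. The median in MIA PaCa-2 was therefore higher with dox for these RNAs and lower for the histone genes, and their part in the histone result was not tested. All small nucleolar, small nuclear and small Cajal body RNA genes together held 0.00393, 0.00334 and 0.00208% untreated and 0.00548, 0.00534 and 0.00299% with dox in Pa-Tu-8902, which overlapped, with a median ratio of 1.60. In MIA PaCa-2 that ratio was 1.56. Mitochondrial rRNA genes held 0.188, 0.193 and 0.151% untreated and 0.338, 0.203 and 0.250% with dox in Pa-Tu-8902, a median ratio of 1.33 without overlap, and in MIA PaCa-2 the ratio was 1.09. The part of these RNAs in the histone result was not tested. Of the 10 listed RNAs tested in each line, SNORD3A, the U3 small nucleolar RNA, was lower in Pa-Tu-8902 (log2 -1.84, edgeR adjusted p = 6.77e-05) and differed between the lines (log2 -2.05), and 0 were called in MIA PaCa-2 by edgeR or DESeq2, with 2 higher and 1 lower at an unadjusted p under 0.05. Of 14 markers of blood, endothelial and fibroblast cells, 6 were tested in each line. COL1A1 and VWF were higher and CD68 lower in Pa-Tu-8902, and COL1A2 was higher and CD14 lower in MIA PaCa-2, while none differed between the lines by edgeR or DESeq2 and 5 had an unadjusted p under 0.05. The list had summed levels of 17.6 to 21.7 TPM untreated and 34.6 to 36.8 with dox in the first line and 206 to 263 and 352 to 410 in the second. PTPRC, CD3E, LUM and DCN stayed at or below 0.17 TPM in every library and MS4A1 at 0, and the part of these genes' cells in the histone result was not tested.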

How the data were processed

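RNA-seq was performed on 12 poly(A)-selected libraries (NEBNext Ultra II Directional) of Pa-Tu-8902 and MIA PaCa-2, untreated or treated with dox, with 3 per group. According to the labels and methods, reads were trimmed with Trimmomatic 0.39, aligned with STAR 2.5.2a called by RSEM 1.3.1 to GRCh38 and quantified over GENCODE release 29. The authors deposited RSEM expected counts per gene and per transcript and TPM values; FPKM values were not used. Expected counts were rounded and tested with the quasi-likelihood test of edgeR 4.0.16 (R 4.3.3, limma 3.58.1) after TMM scaling, keeping genes that reached 10 counts in 3 or more of the libraries fitted, and Benjamini-Hochberg adjustment over all genes tested. Each line was fitted alone, and the difference between the lines and the untreated lines were contrasts of 1 fit of all 12 libraries. Standard errors were taken as the ratio of the log2 fold change to the root of its F value. Calls required an adjusted p under 0.01 together with a change of 1.5 times or more, and the procedure was checked on simulated counts.

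Library totals of 26226537 to 43406137 counts set the counting precision. Where a group was at 0, 3 counts per library were taken as the limit, which covers counting error only. Alternatives tried were the test of DESeq2 1.42.0, edgeR with DESeq2 size factors, other filters, effective lengths, no fold limit, a replicate block, members of the same protein summed and each library left out. Members of the same protein were found by translating coding sequences of GENCODE release 44, which was also used for positions, with 66 members placed by Ensembl ID and 5 by Entrez ID. The members and the gene lists were chosen with earlier results of these data known. The text names GOT1, members called in both lines, the 8 called members with the smallest p and the 5 with the highest TPM in each line, the called member with the highest count of each family, the 5 with the largest difference between the lines (mean of at least 100 normalized counts), HIST2H3A, HIST2H3C and HIST2H3D as copies, and the 3 called genes with the smallest p of each list. Other members are named to account for their family, and were chosen after their values were seen. The main fits did not pair libraries by replicate number. Correlations of deviations between libraries of the same number lay between -0.20 and 0.25, which cannot show whether the libraries were paired.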

Additional observations from a re-analysis of the deposited data

Results flagged for a closer look

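For 17 members the response to dox differed between the lines by the interaction test (log2 fold change in Pa-Tu-8902 minus that in MIA PaCa-2; edgeR quasi-likelihood test with Benjamini-Hochberg adjustment over all genes). Among the H2A genes the differences were 3.45 for HIST2H2AA3, 3.38 for HIST1H2AC, 2.09 for HIST1H2AG and 0.83 for HIST3H2A. Among the H2B genes they were 3.28 for HIST1H2BJ, 2.90 for HIST2H2BE, 2.76 for HIST1H2BC, 2.74 for HIST1H2BK, 2.51 for HIST1H2BD, 2.47 for HIST1H2BO, 2.08 for HIST1H2BN and 1.99 for HIST3H2BB. The H3 genes HIST2H3C and HIST1H3H differed by 3.40 and 1.28, the H4 genes HIST2H4A and HIST1H4H by 3.04 and 1.71, and the linker histone gene HIST1H1C by 2.35. HIST2H2AA3 and HIST2H3C are copies among which reads were divided by estimation, and HIST1H2BO and HIST3H2BB were too low to be tested in Pa-Tu-8902 alone. Each group held 3 libraries, too few to test single libraries as outliers.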

How the results depend on the processing

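Of 188 settings of the counts and shares, 177 stayed within 1.5 times the reported count or 1 SD, and 11 moved. In MIA PaCa-2, 2 to 7 members were higher and 18 to 20 lower when a library was left out, and in Pa-Tu-8902 10 to 11 were higher and 0 lower. The 7 came without untreated replicate 2. Members whose response was smaller in Pa-Tu-8902 numbered 2 with DESeq2 and 2 without a filter on low counts (HIST1H2BL and HIST1H2AJ), and 0 to 2 with a library left out, against 14 to 17 with a larger response. Between the untreated lines 20 were lower with at least 10 counts in every library, 24 with copies of a protein summed, where fewer features were tested, and 42 to 46 with a library left out, when 0 to 1 were higher (HIST2H3A, without untreated replicate 2 of MIA PaCa-2). The share ratio of MIA PaCa-2 was 0.571 by TPM and 0.432 to 0.482 with a library left out, that of Pa-Tu-8902 1.54 to 1.71, and that between the untreated lines 36.2 to 41.3, or 30.1 without the member with the most counts. The 9 members called in opposite directions numbered 6 with effective lengths and 8 to 10 with a library left out. Of 1142 settings of named genes, 19 lost and 6 gained the call and 2 changed direction, both of HIST2H3A without untreated replicate 2 of MIA PaCa-2 (log2 -9.13 for the difference and 7.17 between the untreated lines, where leaving out other libraries gave up to 0.96 and down to -2.93), which was the only untreated library of that line with a count of this copy. The cause of the other moves was not tested. With the replicate number as a block, 10 members were higher in Pa-Tu-8902, 3 higher and 20 lower in MIA PaCa-2, 16 differed in response and 39 between the untreated lines. DESeq2 gave no adjusted p for 10 members in the difference. At this depth 41 of the 71 members were too low to be tested in Pa-Tu-8902.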
